A study of Homo sapiens with 15 samples.

Results

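The 60 genes described here encode the machinery of mitosis: the kinases that start it, the centromere and kinetochore, the spindle and its motors, the spindle checkpoint, anaphase, cytokinesis and condensin, with the transcription factors FOXM1 and MYBL2. They were chosen by name for these roles, with earlier results of these data known. All 60 were present among the 18473 genes listed for NCI-N87 and among the 18346 genes listed for SNU-484. All 60 passed the filter on low counts in every fit. RNA sequencing libraries of 2 gastric cancer cell lines were compared, with 3 biological replicates in each of 5 groups and 15 libraries in all. NCI-N87 (a gastric carcinoma line by its label, described by the study as high in HER2 with gene amplification) was treated with T-DXd, trastuzumab or vehicle, and SNU-484 (a gastric adenocarcinoma line by its label, described as low in HER2) with T-DXd or vehicle. Treatment was at 1 µg/ml for 72 h, both lines carry the genotype label wild type, and the vehicle was an acetate buffer with sorbitol. T-DXd (trastuzumab deruxtecan) is the HER2 antibody trastuzumab carrying a topoisomerase I inhibitor. No trastuzumab group of SNU-484 was analysed here, so antibody and payload cannot be told apart in that line. For SNU-484 the control columns are named with the letters iso although the samples are labelled vehicle, so whether both lines had the same control is not known here. These are bulk libraries of 1 cell line each. In them more or fewer cells in mitosis cannot be told apart from more or less RNA per cell.

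A cell enters mitosis when CDK1 with its cyclin is switched on by CDC25 phosphatases. Kinetochores, built on centromeric chromatin that contains the histone CENPA, then attach chromosomes to spindle microtubules, and the spindle checkpoint holds back the anaphase-promoting complex until all are attached. CDC20 activates that complex, securin is destroyed, separase opens cohesin, and the central spindle and a contractile ring divide the cell. Many of these genes are transcribed late in the cell cycle: the DREAM repressor complex holds them low in resting cells through CHR elements in their promoters, and MYBL2 (B-Myb), the MuvB core and FOXM1 activate them in G2, often together with the CCAAT-binding factor NF-Y.

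The promoters of 5 members are shown because their genes behaved differently under T-DXd. CEP55 and HJURP had the largest increases in NCI-N87, PLK1 was not called there against vehicle, and CDC20 and KIF20A were lower. Each sequence runs 5′ to 3′ on the strand of the gene from 250 bases before to 50 bases after its start, as given by RefSeq on GRCh38.p14, with TTTGAA (a CHR form) and CCAAT in capitals on either strand, so that a match on the other strand reads TTCAAA or ATTGG.
CEP55 (chr10:93496362-93496661, plus strand): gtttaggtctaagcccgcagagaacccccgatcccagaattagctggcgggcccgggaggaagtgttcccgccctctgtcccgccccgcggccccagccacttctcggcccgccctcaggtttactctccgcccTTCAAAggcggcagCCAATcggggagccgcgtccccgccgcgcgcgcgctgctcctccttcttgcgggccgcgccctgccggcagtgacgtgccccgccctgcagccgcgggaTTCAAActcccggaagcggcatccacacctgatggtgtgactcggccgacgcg
HJURP (chr2:233854486-233854785, minus strand): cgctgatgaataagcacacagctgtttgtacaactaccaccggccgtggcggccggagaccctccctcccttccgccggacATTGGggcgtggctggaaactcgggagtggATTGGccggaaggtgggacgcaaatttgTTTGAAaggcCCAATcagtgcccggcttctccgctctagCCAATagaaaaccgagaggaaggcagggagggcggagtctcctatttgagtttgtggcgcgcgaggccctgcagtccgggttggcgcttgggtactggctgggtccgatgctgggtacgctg
PLK1 (chr16:23678639-23678938, plus strand): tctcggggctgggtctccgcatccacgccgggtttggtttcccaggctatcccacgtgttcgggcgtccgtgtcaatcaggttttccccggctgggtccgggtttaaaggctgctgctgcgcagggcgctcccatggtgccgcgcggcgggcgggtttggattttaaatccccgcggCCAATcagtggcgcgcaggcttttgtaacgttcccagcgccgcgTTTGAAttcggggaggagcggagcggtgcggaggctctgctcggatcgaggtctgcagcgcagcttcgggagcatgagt
CDC20 (chr1:43358731-43359030, plus strand): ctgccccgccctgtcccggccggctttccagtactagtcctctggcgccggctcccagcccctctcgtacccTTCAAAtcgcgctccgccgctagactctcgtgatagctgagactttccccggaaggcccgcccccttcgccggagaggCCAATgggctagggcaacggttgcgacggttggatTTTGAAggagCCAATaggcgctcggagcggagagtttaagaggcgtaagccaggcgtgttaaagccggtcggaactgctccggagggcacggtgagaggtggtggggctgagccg
KIF20A (chr5:138178862-138179161, plus strand): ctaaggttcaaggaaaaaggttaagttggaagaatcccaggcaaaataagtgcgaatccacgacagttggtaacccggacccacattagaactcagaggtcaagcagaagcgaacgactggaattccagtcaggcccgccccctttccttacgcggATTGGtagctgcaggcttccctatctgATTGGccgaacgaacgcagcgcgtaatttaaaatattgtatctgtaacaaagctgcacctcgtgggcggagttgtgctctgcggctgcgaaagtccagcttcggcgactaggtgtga
CEP55 and CDC20 each held 2 copies of TTTGAA, PLK1 and HJURP 1, and KIF20A 0, while CCAAT was found 4 times in HJURP, 2 times in CDC20 and KIF20A and 1 time in CEP55 and PLK1. A promoter entry matched 50 of the 60 members. TTTGAA or its variant TTCGAA was found in 38 of the 50 (76%), against 16.8% of all 27305 promoters of this length, and CCAAT in 36 of the 50 (72%), against 35.6%. Both were found in 30 of the 50 members (60%), against 6.63% of all promoters. TTTGAA or TTCGAA was held by 32 of 42 members that were higher with T-DXd in NCI-N87 (76.2%) and by 6 of 8 that were not (75%). A match of these letters is a description and no evidence of a bound site.

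Total counts per library were between 47990460 and 64623697 in NCI-N87 and between 46666533 and 66581448 in SNU-484, and no member had fewer than 779 reads in any library. All 8 epithelial markers examined were listed for NCI-N87, with a summed level of 15214 to 15559 TPM (transcripts per 1e6) with T-DXd, 11845 to 12213 TPM with trastuzumab and 12362 to 12372 TPM with vehicle. KRT18, KRT19 and ELF3 were not listed for SNU-484, where the other 5 summed to 24.7 to 31.1 TPM with T-DXd and 30.2 to 33.0 TPM with vehicle. Of 9 fibroblast and endothelial markers 6 were listed for SNU-484, at 599 to 769 TPM with T-DXd and 576 to 641 TPM with vehicle, and 2 (COL1A1 and VWF) for NCI-N87, at 2.77 to 3.65 TPM with T-DXd, 0.939 to 1.06 TPM with trastuzumab and 0.732 to 0.841 TPM with vehicle. Of 10 leukocyte markers CD14, LYZ and CD68 were listed for NCI-N87, at 114 to 119 TPM with T-DXd, 90.7 to 93.6 TPM with trastuzumab and 84.9 to 87.7 TPM with vehicle. PTPRC, which encodes the leukocyte antigen CD45, was listed for SNU-484 with CD14 and CD68, at 139 to 157 TPM with T-DXd and 165 to 169 TPM with vehicle. The part of these marker levels in the results was not tested.

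Between genes, levels were compared in TPM, which accounts for transcript length. The median member stood at 60.9 TPM in NCI-N87 with T-DXd, 46.7 TPM with trastuzumab and 47.2 TPM with vehicle, and at 68.4 TPM in SNU-484 with T-DXd and 70.9 TPM with vehicle. UBE2C, the ubiquitin-conjugating enzyme of the anaphase-promoting complex, was the most abundant member in NCI-N87, at 244 TPM with T-DXd, 208 TPM with trastuzumab and 227 TPM with vehicle. PTTG1 (securin) was the most abundant in SNU-484, at 296 TPM with T-DXd and 314 TPM with vehicle. In the other direction, the spindle kinesin KIF15 was the lowest member in NCI-N87 with T-DXd (8.37 TPM) and with vehicle (8.004 TPM).

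The levels of the lines without T-DXd were compared in the vehicle libraries. With both tables scaled together, 34 of 60 members were higher in every SNU-484 vehicle library than in every NCI-N87 vehicle library (background 44.7% of 14739 genes), 14 were lower in every SNU-484 vehicle library (background 43.4%), and 12 overlapped. KIF4A, a chromokinesin, averaged 174 ± 6.72 CPM (reads per 1e6 counted) in SNU-484 vehicle libraries and 55.8 ± 2.24 CPM in NCI-N87 vehicle libraries (SD, n = 3 each), 3.11-fold higher in SNU-484. AURKB, the kinase of the chromosomal passenger complex, averaged 79.9 ± 3.71 CPM in SNU-484 and 29.8 ± 0.810 CPM in NCI-N87 (SD, n = 3 each), 2.68-fold higher in SNU-484. HMMR, a spindle-pole protein and hyaluronan receptor, stood apart in the opposite direction, with 16.6 ± 0.423 CPM in SNU-484 and 97.7 ± 2.62 CPM in NCI-N87 (SD, n = 3 each), a level 5.88-fold higher in NCI-N87. These line differences are given by their ranges and were not tested.

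In NCI-N87, T-DXd raised most of the mitotic genes: 50 of 60 members were higher than with vehicle, 3 were lower and 7 were not called. A member was called higher or lower at an adjusted p under 0.05 in edgeR's quasi-likelihood test, with Benjamini-Hochberg adjustment over all genes tested. The background in this comparison was high, since 29.1% of all 17394 genes were called higher and 29.5% lower. The changes were modest in size, with log2 fold changes between -0.27 and 0.83 and a median of 0.31 against -0.01 over all genes. The members together summed to 7091.5 ± 67.9 CPM with T-DXd and 5681.5 ± 21.7 CPM with vehicle (SD, n = 3 each). In 51 members every T-DXd library lay above every vehicle library (background 31.5%), and in 3 every one lay below (background 31.9%).

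**Figure D1:**
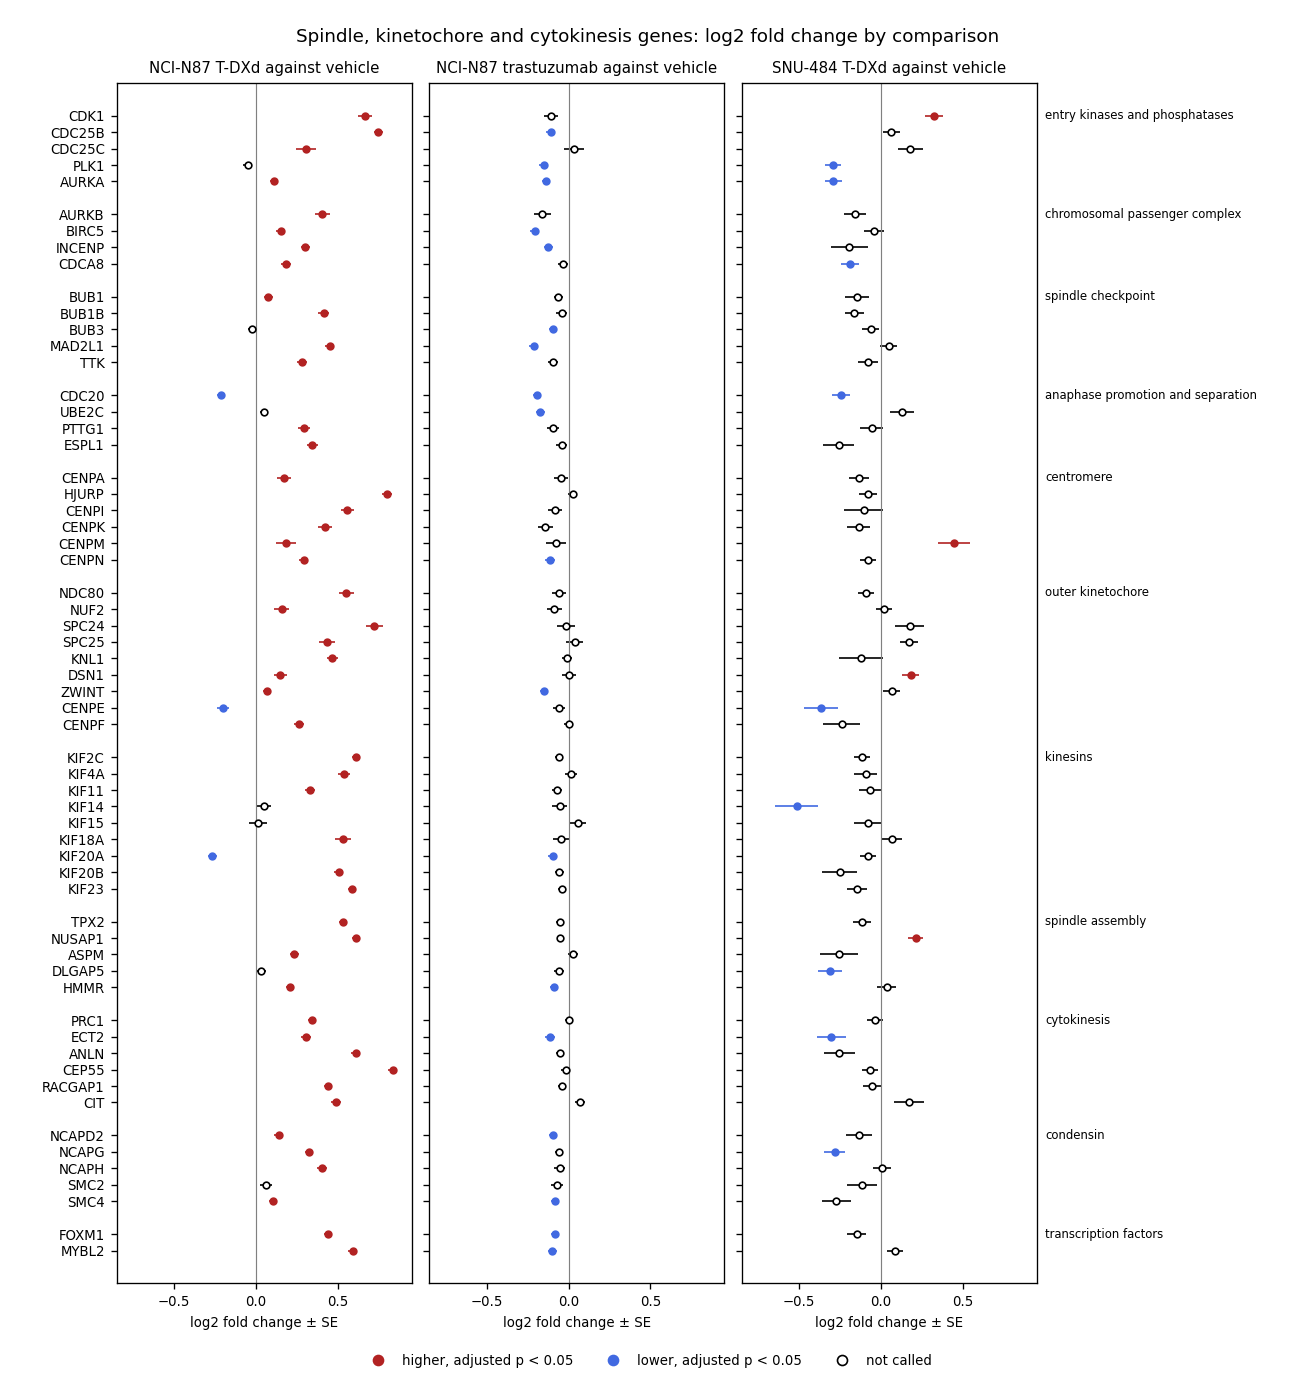
Log2 fold change (x axis, ± SE) of each of the 60 genes (rows, grouped by role) in 3 comparisons, with filled points for genes called at an adjusted p under 0.05 and open points for the rest. Most points in the NCI-N87 T-DXd panel lie to the right of 0 (50 higher, 3 lower), those of trastuzumab lie close to 0 (0 higher, 18 lower), and those of SNU-484 lie on both sides (4 higher, 9 lower).

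Among the kinases and phosphatases of mitotic entry, 4 of 5 were higher with T-DXd in NCI-N87. CDK1, the central mitotic kinase, had 217, 191 and 193 CPM in the T-DXd libraries, against 125, 122 and 131 CPM with vehicle (log2 fold change 0.67 ± 0.042 (SE), adjusted p = 6.52e-10). CDC25B, one of its activating phosphatases, had 194, 181 and 185 CPM with T-DXd, against 112, 112 and 110.1 CPM with vehicle (log2 fold change 0.75 ± 0.027 (SE), adjusted p = 8.98e-13). All 3 T-DXd libraries lay above all 3 vehicle libraries for both genes, with T-DXd replicate 1 the highest in each. CDC25C, a second phosphatase of CDK1, gave 0.31 ± 0.059, and the centrosomal kinase AURKA 0.11 ± 0.023 (log2 fold change ± SE). PLK1, the kinase of centrosome maturation and kinetochore attachment, was not called: it had 117, 121 and 113 CPM with T-DXd, against 122, 118 and 123 CPM with vehicle, and its 95% interval on the log2 scale was -0.11 to 0.01.

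At the centromere all 6 members were higher, with a median log2 fold change of 0.36. HJURP, the chaperone that deposits CENPA, had the largest change of them, with 103, 100.5 and 102 CPM with T-DXd, against 58.3, 59.3 and 58.1 CPM with vehicle (log2 fold change 0.80 ± 0.029 (SE), adjusted p = 7.88e-13). CENPA itself changed less, with 28.9, 29.3 and 27.6 CPM with T-DXd, against 25.8, 25.4 and 25.1 CPM with vehicle (log2 fold change 0.17 ± 0.043 (SE), adjusted p = 0.00263). In both genes the groups did not overlap. CENPI and CENPK, of the constitutive centromere network that bridges CENPA chromatin to the kinetochore, gave log2 fold changes of 0.56 and 0.42, CENPN 0.29 and CENPM 0.18. The CENPM call did not hold without vehicle replicate 2 (adjusted p = 0.0968) or without T-DXd replicate 3 (adjusted p = 0.0695).

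Of the 9 outer kinetochore genes 8 were higher and 1 was lower. The subunits of the NDC80 complex, which binds microtubules, did not move by the same amount: the log2 fold change was 0.72 ± 0.052 for SPC24, 0.55 ± 0.043 for NDC80, 0.43 ± 0.048 for SPC25 and 0.16 ± 0.045 for NUF2 (± SE). KNL1, the scaffold that recruits BUB proteins, gave 0.47, CENPF 0.26, the MIS12-complex subunit DSN1 0.15 and ZWINT 0.07 on the same scale. CENPF, a large kinetochore and matrix protein, had 201, 202 and 199 CPM with T-DXd, against 162, 174 and 166 CPM with vehicle. The ZWINT call, the smallest of the 50, was lost in 4 of 6 fits that each left out 1 library (vehicle replicates 1 and 2 and T-DXd replicates 1 and 2), in which its adjusted p was between 0.0658 and 0.0852. The exception was CENPE, the kinesin that carries chromosomes toward the spindle equator, which fell to 45.1, 42.4 and 44.96 CPM with T-DXd, against 51.4, 50.4 and 50.4 CPM with vehicle (log2 fold change -0.20 ± 0.036 (SE), adjusted p = 0.00013).

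In the spindle checkpoint 4 of 5 genes were higher. MAD2L1, the inhibitor that captures CDC20, had 131, 124 and 129 CPM with T-DXd, against 95.2, 93.7 and 92.4 CPM with vehicle (log2 fold change 0.45 ± 0.027 (SE), adjusted p = 3.08e-10). BUB1B, encoding BUBR1 and sharing exons with the read-through gene BUB1B-PAK6, gave a log2 fold change of 0.41 and the checkpoint kinase TTK 0.28. BUB1, a kinetochore kinase, was higher by only 0.08 ± 0.025 on that scale (91.1, 88.2 and 89.00 CPM with T-DXd, against 83.9, 85.9 and 84.9 CPM with vehicle), and the call was lost without vehicle replicate 1 or T-DXd replicate 1 (adjusted p = 0.0645 and 0.0639). BUB3, the WD-repeat partner of BUB1, was not called (log2 fold change -0.02, 95% interval -0.07 to 0.03).

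The genes of anaphase were divided. CDC20, the activator that the checkpoint inhibits, fell to 153, 152 and 152 CPM with T-DXd, against 182, 175 and 174 CPM with vehicle (log2 fold change -0.21 ± 0.025 (SE), adjusted p = 1.47e-06), and every T-DXd library was below every vehicle library. ESPL1 (separase) and PTTG1 were higher, by 0.34 and 0.29 on the log2 scale. UBE2C was not called, with a log2 fold change of 0.05 (95% interval -0.01 to 0.10).

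All 4 genes of the chromosomal passenger complex were higher, by 0.41 for the kinase AURKB, 0.30 for the scaffold INCENP, 0.18 for CDCA8 (borealin) and 0.15 for BIRC5 (survivin) on the log2 scale. AURKB had 35.01, 35.6 and 39.3 CPM with T-DXd, against 27.96, 28.1 and 26.8 CPM with vehicle. The condensin genes, whose products compact chromosomes, were higher in 4 of 5 cases, at log2 fold changes of 0.40 for NCAPH, 0.32 for NCAPG, 0.14 for NCAPD2 and 0.10 for SMC4, and SMC2 was not called at 0.06 (95% interval -0.02 to 0.14).

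Of the 9 kinesins 6 were higher, by between 0.33 for KIF11, the motor that separates the spindle poles, and 0.61 for KIF2C, a microtubule depolymerase. KIF2C had 117, 115 and 119 CPM with T-DXd, against 75.96, 77.7 and 77.1 CPM with vehicle (adjusted p = 3.46e-12). KIF23, a subunit of centralspindlin, gave a log2 fold change of 0.59, KIF4A 0.54, KIF18A, which damps chromosome movement, 0.53, and KIF20B 0.50. KIF20A, the motor that moves the passenger complex to the central spindle, went the other way, with 72.3, 75.3 and 73.5 CPM with T-DXd, against 88.6, 88.7 and 88.7 CPM with vehicle (log2 fold change -0.27 ± 0.027 (SE), adjusted p = 1.96e-07), the largest decrease of the 60. Exons of KIF20A overlap those of CDC23 and BRD8 on the opposite strand in GENCODE v44, and whether the counting used strand is not stated in the sources used here. KIF14, a motor of cytokinesis, and KIF15 were not called, at 0.05 and 0.01 (95% intervals -0.05 to 0.14 and -0.10 to 0.12).

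All 6 cytokinesis genes were higher, with a median log2 fold change of 0.47. CEP55, which brings the abscission machinery to the midbody, had the largest increase of all members: 179, 172 and 177 CPM with T-DXd, against 98.2, 99.5 and 98.3 CPM with vehicle (log2 fold change 0.83 ± 0.025 (SE), adjusted p = 1.26e-13). ANLN, the anillin of the contractile ring, had 211, 205 and 202 CPM with T-DXd, against 135, 134 and 136 CPM with vehicle (log2 fold change 0.61 ± 0.026 (SE), adjusted p = 6.89e-12). In both genes the groups were well apart and replicates differed by a few percent. Citron kinase (CIT) gave 0.49, the centralspindlin subunit RACGAP1 0.44, the microtubule bundler PRC1 0.34 and the RhoA activator ECT2 0.30.

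Among spindle assembly factors 4 of 5 were higher. NUSAP1, a microtubule-binding spindle protein, had 241, 242 and 238 CPM with T-DXd, against 157, 159 and 156 CPM with vehicle (log2 fold change 0.61 ± 0.023 (SE), adjusted p = 1.22e-12), and TPX2, the activator of AURKA, had 266, 269.7 and 267 CPM with T-DXd, against 187, 184 and 184 CPM with vehicle (0.53 ± 0.025 (SE), adjusted p = 1.78e-11). ASPM, which focuses spindle poles, and HMMR were higher by 0.23 and 0.21, and DLGAP5, a stabiliser of kinetochore fibres, was not called (0.03, 95% interval -0.03 to 0.10). Both transcription factors were higher. MYBL2 had 259, 272 and 273 CPM with T-DXd, against 182, 177 and 174 CPM with vehicle (log2 fold change 0.59 ± 0.028 (SE), adjusted p = 1.86e-11). FOXM1 had 199, 209 and 206 CPM with T-DXd, against 152, 152 and 148 CPM with vehicle (log2 fold change 0.44 ± 0.025 (SE), adjusted p = 2.03e-10). No T-DXd library overlapped a vehicle library in either gene.

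**Figure D2:**
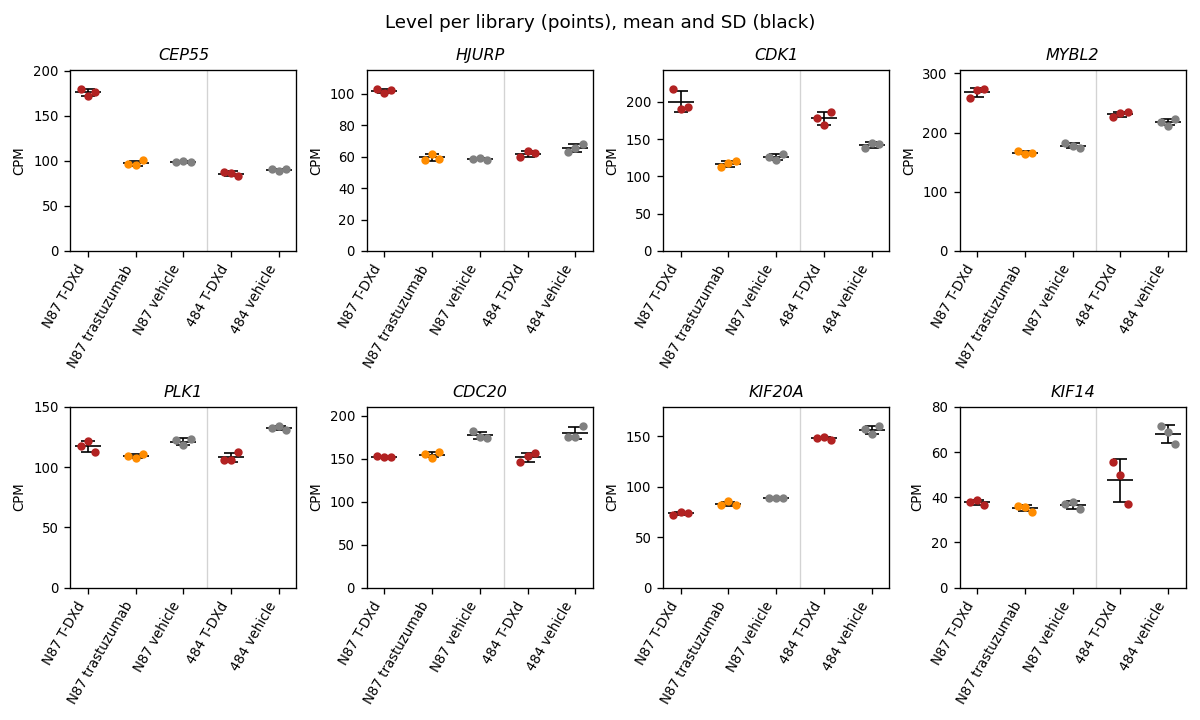
CPM (y axis, from 0) of 8 genes in each of the 15 libraries (points) by group (x axis, line names shortened), with the mean and SD of each group in black. CEP55, HJURP, CDK1 and MYBL2 lie higher with T-DXd in NCI-N87, CDC20 and KIF20A lower, and KIF14 shows a wide spread among the SNU-484 T-DXd libraries.

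Trastuzumab alone had small effects on the same genes in NCI-N87. Of the 60 members 0 were called higher and 18 lower (background 3.65% higher and 6.09% lower), with log2 fold changes between -0.21 and 0.07 and a median of -0.06 against 0.01 over all genes. At an unadjusted p under 0.05 edgeR gave 1 higher (CIT) and 29 lower. The share of all genes at that unadjusted threshold is not given here. DESeq2 gave 0 higher at its adjusted threshold. In 50 of 60 members the fold change was negative. Every trastuzumab library lay below every vehicle library in 35 members (background 14.6%) and above in 1 (background 13.6%). The members summed to 5383.2 ± 25.4 CPM with trastuzumab and 5681.5 ± 21.7 CPM with vehicle (SD, n = 3 each). The number of lower calls was 9 without vehicle replicate 1 (15%, against 3.78% of all genes). It was 10 without trastuzumab replicate 3 (16.7%, against 4.26%) and 11 without trastuzumab replicate 1 (18.3%, against 4.03%). It was 7 when libraries were scaled by their totals alone. Across all genes the split of 635 higher and 1060 lower became 754 and 818 with upper-quartile factors and 836 and 529 with library totals.

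MAD2L1 had the largest decrease, with 78.8, 82.5 and 81.6 CPM with trastuzumab, against 95.2, 93.7 and 92.4 CPM with vehicle (log2 fold change -0.21 ± 0.027 (SE), adjusted p = 0.000188). BIRC5 had 98.3, 93.7 and 96.2 CPM with trastuzumab, against 110.05, 114 and 108 CPM with vehicle (-0.21 ± 0.027 (SE), adjusted p = 0.000208). CDC20 had 156, 151 and 158 CPM with trastuzumab, against 182, 175 and 174 CPM with vehicle (-0.19 ± 0.025 (SE), adjusted p = 0.00022). For these 3 genes no trastuzumab library reached the lowest vehicle library. MAD2L1, BIRC5, CDC20, UBE2C, PLK1, AURKA and ZWINT kept their call in each of the 6 fits that left out 1 library. UBE2C gave -0.17, PLK1 -0.15, ZWINT -0.15 and AURKA -0.14. The other 11 lower calls were at log2 fold changes between -0.12 (INCENP) and -0.08 (SMC4) and included FOXM1 (-0.08) and MYBL2 (-0.10), and each of them was lost in at least 1 such fit. CEP55, HJURP, CENPA, CENPF, BUB1, TPX2, AURKB and CDK1 were not called, and their log2 fold changes lay between -0.16 (AURKB) and 0.02 (HJURP).

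The effects of both drugs in NCI-N87 share the vehicle libraries, and their values are therefore given side by side. CDC20 and KIF20A were lower with either drug, at -0.21 and -0.27 with T-DXd and -0.19 and -0.10 with trastuzumab. The genes called higher with T-DXd and lower with trastuzumab were 13: AURKA, BIRC5, CDC25B, CENPN, ECT2, FOXM1, HMMR, INCENP, MAD2L1, MYBL2, NCAPD2, SMC4 and ZWINT. PLK1, BUB3 and UBE2C were called lower with trastuzumab and not called with T-DXd.

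Set directly against trastuzumab, T-DXd raised 55 of 60 members and lowered 2 (background 28.3% higher and 29.4% lower), with a median log2 fold change of 0.39 against -0.02 over all genes. This comparison sets the antibody with its payload against the antibody without it. In 55 members every T-DXd library lay above every trastuzumab library (background 30.2%), and in 2 below (background 32%). CDC25B and CEP55 had the largest log2 fold changes, at 0.85 ± 0.027 and 0.85 ± 0.025 (± SE), and HJURP and CDK1 followed at 0.78 and 0.77. MAD2L1 had 131, 124 and 129 CPM with T-DXd, against 78.8, 82.5 and 81.6 CPM with trastuzumab (log2 fold change 0.66 ± 0.027 (SE), adjusted p = 4.06e-12). PLK1, not called against vehicle, had 117, 121 and 113 CPM with T-DXd, against 109, 107 and 111 CPM with trastuzumab (0.10 ± 0.028 (SE), adjusted p = 0.00489). All 3 T-DXd libraries were above the trastuzumab libraries in both genes. UBE2C and SMC2 were higher by 0.22 and 0.14. BUB3 and DLGAP5, at 0.07 and 0.09, lost their call without trastuzumab replicate 1 (adjusted p = 0.0661 and 0.0519) and without T-DXd replicate 1 (adjusted p = 0.0572 and 0.0601), and DLGAP5 also without trastuzumab replicate 3 (adjusted p = 0.0798). KIF20A and CENPE were lower than with trastuzumab (-0.17 ± 0.027 and -0.14 ± 0.036), and CDC20, KIF14 and KIF15 were not called, with 95% intervals of -0.08 to 0.03, 0.01 to 0.20 and -0.16 to 0.07.

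In SNU-484 with T-DXd fewer genes were called than in NCI-N87, among the members and over all genes: 4 of 60 members were higher, 9 were lower and 47 were not called (background 11.2% higher and 9.65% lower of 16876 genes). The median log2 fold change was -0.09, against 0.00 over all genes. The members summed to 6547 ± 283 CPM with T-DXd and 7031 ± 119 CPM with vehicle (SD, n = 3 each). Every T-DXd library lay above every vehicle library in 7 members (background 21.2%) and below in 25 (background 19.9%). The counts depended on single libraries. Without 1 vehicle library they were 1 higher and 3 lower (replicate 1), 1 and 2 (replicate 2) or 2 and 2 (replicate 3), and without 1 T-DXd library 4 and 10 (replicate 1), 2 and 4 (replicate 2) or 6 and 14 (replicate 3). The share of members called lower was 3.33% without vehicle replicate 2 and 3.33% without vehicle replicate 3, against 3.73% and 4.29% of all genes in those fits, and it was above the share of all genes in the other 4, by the most without T-DXd replicate 1 (16.7% against 8.81%). Across all genes the split of 1897 higher and 1629 lower became 2162 and 1358 with upper-quartile factors and 2251 and 1252 with library totals.

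CDK1, PLK1 and AURKA kept their call in each of these fits. CDK1 had 178, 169 and 186 CPM with T-DXd, against 138, 144 and 144 CPM with vehicle (log2 fold change 0.32 ± 0.055 (SE), adjusted p = 0.00553). PLK1 had 106, 106 and 112 CPM with T-DXd, against 133, 134 and 131 CPM with vehicle (-0.29 ± 0.050 (SE), adjusted p = 0.00561). AURKA had 92.7, 92.9 and 98.3 CPM with T-DXd, against 115, 119 and 113 CPM with vehicle (-0.29 ± 0.053 (SE), adjusted p = 0.00679). The groups did not overlap in any of the 3, with CDK1 above and both other kinases below the vehicle libraries.

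The other 3 genes called higher were CENPM (0.44 ± 0.097 (SE), adjusted p = 0.0146), NUSAP1 (0.21 ± 0.048 (SE), adjusted p = 0.0168) and DSN1 (0.18 ± 0.051 (SE), adjusted p = 0.0378), and CENPM had 36.5, 37.6 and 47.4 CPM with T-DXd, against 28.5, 30.1 and 30.5 CPM with vehicle, the highest value being that of T-DXd replicate 3. The other 7 genes called lower were KIF14, CENPE, DLGAP5, ECT2, NCAPG, CDC20 and CDCA8. KIF14 had 55.5, 49.9 and 37.05 CPM with T-DXd, against 71.6, 69.1 and 63.6 CPM with vehicle (-0.52 ± 0.13 (SE), adjusted p = 0.0238), so that its lowest value was again in T-DXd replicate 3. CENPE gave -0.37 ± 0.11, DLGAP5 -0.31 ± 0.073, ECT2 -0.30 ± 0.089, NCAPG -0.28 ± 0.064, CDC20 -0.25 ± 0.055 and CDCA8 -0.19 ± 0.053 (log2 fold change ± SE). Of 6 fits without 1 library each, the call was lost in 5 for CDCA8 and DSN1, in 4 for CENPE, ECT2, KIF14 and NUSAP1, in 3 for CDC20, DLGAP5 and NCAPG and in 2 for CENPM, with adjusted p-values up to 0.150. Leaving out vehicle replicate 2 ended all 10 of these calls, and leaving out T-DXd replicate 3 ended 0.

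CEP55 and HJURP, with the largest increases in NCI-N87, were not called in SNU-484, and neither were MYBL2 and FOXM1. CEP55 had 87.8, 86.8 and 83.2 CPM with T-DXd, against 91.01, 88.8 and 90.4 CPM with vehicle, a log2 fold change of -0.07 (95% interval -0.18 to 0.04). HJURP had 59.95, 63.9 and 62.1 CPM with T-DXd, against 62.7, 65.5 and 68.3 CPM with vehicle (-0.08, 95% interval -0.21 to 0.05). MYBL2 had 226, 233 and 234 CPM with T-DXd, against 218, 212 and 223 CPM with vehicle (0.09, 95% interval -0.02 to 0.20). FOXM1 had 177, 188 and 168 CPM with T-DXd, against 199.99, 196 and 195 CPM with vehicle, and its log2 fold change of -0.15 missed the threshold (adjusted p = 0.0933). TPX2, AURKB, BUB1, CENPA and CENPF were not called either, at log2 fold changes of -0.12, -0.16, -0.15, -0.14 and -0.24, and CENPF had 165, 169 and 128 CPM with T-DXd, against 205, 172 and 169.6 CPM with vehicle, with T-DXd replicate 3 the lowest and vehicle replicate 1 the highest.

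T-DXd replicate 3 of SNU-484 stood apart from the other libraries in how its levels varied with transcript length. Relative to the vehicle mean, the 20 members with the longest transcripts (4388 to 10863 bases in GENCODE v44) had a median log2 ratio of -0.42 in that library, and the 20 with the shortest (715 to 2574 bases) had 0.07. The same gap of the longest over the shortest members was -0.04 and -0.06 in T-DXd replicates 1 and 2, and 0.11, -0.04 and -0.11 in the vehicle libraries, so vehicle replicate 1 stood furthest in the opposite direction. Over 13385 genes with a length, the longest of 3 equal bins had a median of -0.18 and the shortest 0.16 in T-DXd replicate 3. In NCI-N87 the gap among members was between -0.01 and 0.12 in all 9 libraries. CENPE, KIF14 and NCAPG, the 3 members called among the 20 longest, were all lower. The 20 shortest held all 4 genes called higher and 4 called lower (PLK1, AURKA, CDC20 and CDCA8), and the 20 between them held 2 called lower (ECT2 and DLGAP5). With both T-DXd replicate 3 and vehicle replicate 1 left out, an alternative chosen after the data were seen, 6 members were higher and 14 lower. The share of all genes called in that fit is not given here. With T-DXd replicate 3 alone left out, 10% of members were higher and 23.3% lower, against 16.4% and 15.7% of all genes. The part of transcript length, or of RNA quality, in these calls was not tested. All libraries were made from RNA above the same integrity limit, per the labels.

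**Figure D3:**
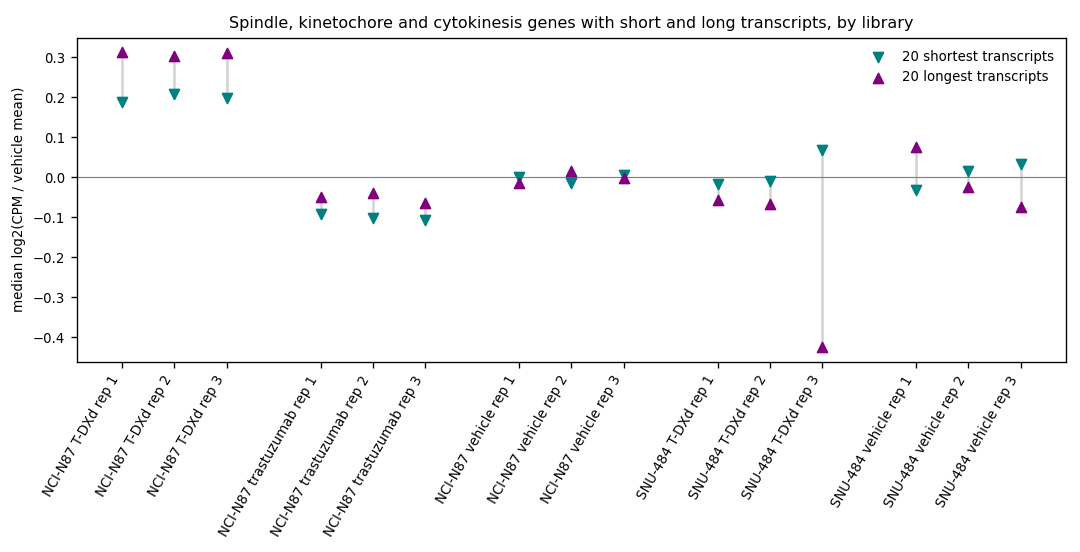
Median log2 ratio of CPM to the mean of the vehicle libraries of the same line (y axis) in each of the 15 libraries (x axis) for the 20 genes with the shortest (downward triangles) and the 20 with the longest transcripts (upward triangles). The symbols lie apart in SNU-484 T-DXd replicate 3, at 0.07 and -0.42, and much closer in every other library.

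The T-DXd effect itself differed between the lines for most members. In a fit over the 12 T-DXd and vehicle libraries of both lines, the effect (SNU-484 minus NCI-N87) was lower in SNU-484 for 49 of 60 members and higher for 1 (background 22.5% lower and 19.4% higher), with a median difference of -0.42 against -0.01 over all 14704 genes. Leaving out any 1 of the 12 libraries gave 46 to 49 lower and 1 higher. In these fits 19.7% to 23.4% of all genes were lower and 16.6% to 23.6% higher. Leaving out both SNU-484 libraries named above gave 47 lower, and the share of all genes in that fit is not given here. Across all genes the split of 2848 higher and 3302 lower became 3504 and 2678 with upper-quartile factors and 3323 and 2760 with library totals, while for the members it was 1 and 45 and 1 and 46.

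The largest differences were those of CEP55 (-0.92 ± 0.051 (SE), adjusted p = 4.47e-08), HJURP (-0.90 ± 0.058 (SE), adjusted p = 1.48e-07) and ANLN (-0.89 ± 0.11 (SE), adjusted p = 3.15e-05). CEP55 had a fold change of -0.07 in SNU-484 and 0.83 in NCI-N87, on the log2 scale. MYBL2 and FOXM1 differed by -0.53 and -0.61, CDK1 by -0.37, PLK1 by -0.27, AURKB by -0.59 and TPX2 by -0.67. CDK1, although called higher in both lines, thus changed less in SNU-484. KIF20A was the 1 member with a higher effect in SNU-484 (0.16 ± 0.049 (SE), adjusted p = 0.0162), being not called there (-0.08) and lower in NCI-N87 (-0.27). All 6 cytokinesis genes, all 5 spindle assembly genes and all 4 passenger complex genes had a lower effect in SNU-484, with median differences of -0.57, -0.42 and -0.46. BIRC5, BUB1 and NUF2, at -0.21, -0.25 and -0.16, lost this call in at least 1 fit without 1 library: BIRC5 in 5 of 12 (adjusted p up to 0.0592), BUB1 in 3 of 12 (up to 0.0605) and NUF2 in 10 of 12 (up to 0.104).

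AURKA, CDCA8, ECT2 and NCAPG were called in opposite directions. AURKA had a log2 fold change of -0.29 in SNU-484 and 0.11 in NCI-N87, CDCA8 -0.19 and 0.18, ECT2 -0.30 and 0.30, and NCAPG -0.28 and 0.32. CDC20 and CENPE were lower in both lines, at -0.25 and -0.37 in SNU-484 and -0.21 and -0.20 in NCI-N87, and CDK1, CENPM, DSN1 and NUSAP1 were higher in both. The difference between the lines was not called for CDC20 (95% interval -0.18 to 0.07), CENPE (-0.45 to 0.07), CENPM (-0.04 to 0.52), DSN1 (-0.12 to 0.13), CDC25C (-0.38 to 0.08), BUB3, UBE2C, ZWINT, KIF15 and SMC2. Across the 60 members the fold changes of the lines had a Pearson r of 0.31 and a Spearman rho of 0.30, given as a description since genes are not independent replicates.

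**Figure D4:**
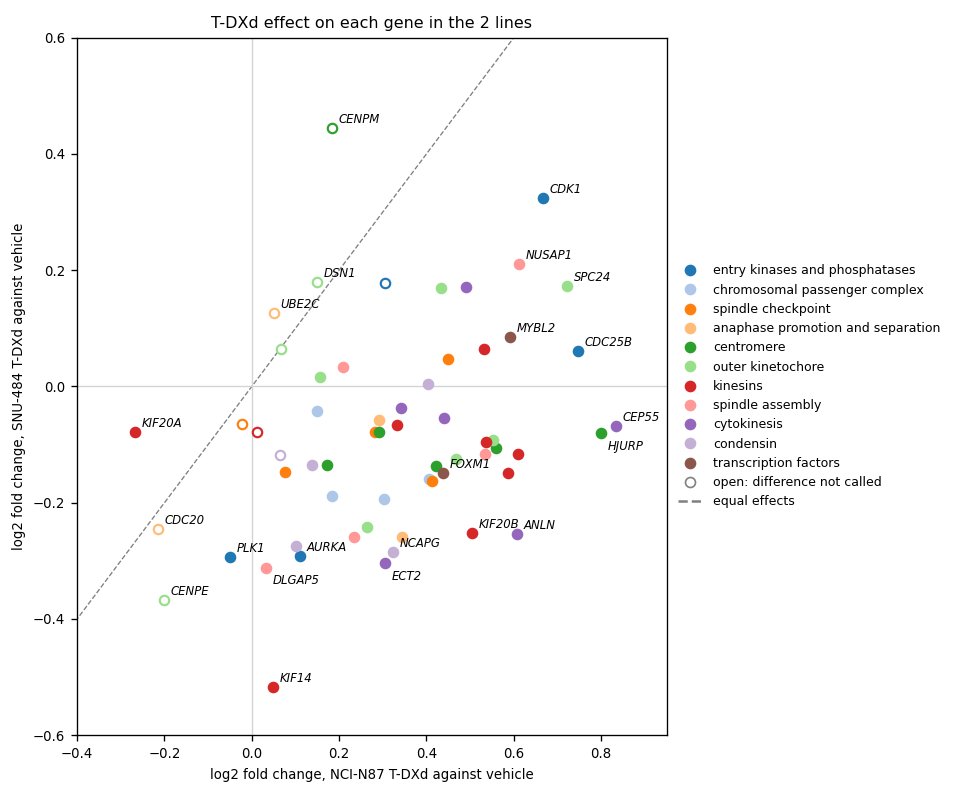
Log2 fold change with T-DXd in SNU-484 (y axis) against that in NCI-N87 (x axis) for the 60 genes, coloured by role, with a dashed line where both effects are equal and open circles where the difference between the lines was not called. In 56 of 60 genes the point lies below the dashed line, farthest for CEP55 (-0.07 in SNU-484 and 0.83 in NCI-N87).

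Beyond the 60 members, 62 other mitotic genes were examined as a list, also chosen with earlier results of these data known. In NCI-N87 with T-DXd 40 were higher and 8 lower (64.5% and 12.9%, against 29.1% and 29.5% of all genes), with a median log2 fold change of 0.30, led by MASTL, the kinase that restrains PP2A (0.85 ± 0.039), NCAPG2 of condensin II (0.71 ± 0.037), PIMREG (0.70 ± 0.059) and CENPU of the centromere network (0.69 ± 0.033). With trastuzumab 0 were higher and 12 lower (0% and 19.4%, against 3.65% and 6.09% of all genes). At an unadjusted p under 0.05 these counts were 1 and 24, for which the share of all genes is not given here. MIS18A had the largest decrease (-0.22 ± 0.067). In SNU-484 with T-DXd 2 were higher and 7 lower. The share of lower calls, 11.3%, was near the 9.65% of all genes, and that of higher calls was 3.23%, against 11.2%. The genes called lower included ARHGAP11A (-0.42 ± 0.082), the centriole kinase PLK4 (-0.36 ± 0.076), the proliferation marker MKI67 (-0.36 ± 0.11) and cyclin B1, CCNB1 (-0.31 ± 0.051). MKI67 had 302, 311 and 234 CPM with T-DXd, against 400.1, 340.1 and 347 CPM with vehicle, and again T-DXd replicate 3 was lowest and vehicle replicate 1 highest. The T-DXd effect was lower in SNU-484 than in NCI-N87 for 37 of the 62 (59.7%, against 22.5% of all genes) and higher for 1 (1.61%, against 19.4%).

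The subunits of the anaphase-promoting complex were mostly lower in NCI-N87. Of 12 genes listed for the complex, its activator FZR1 included, 8 were lower and 2 higher with T-DXd in NCI-N87 (median -0.13). These were 66.7% and 16.7%, against 29.5% and 29.1% of all genes. ANAPC11, the RING subunit, was at -0.30 ± 0.049, ANAPC7 at -0.29 ± 0.027, and FZR1, the activator of late mitosis and G1, at 0.25 ± 0.048. In SNU-484 2 were higher and 2 lower (16.7% each, against 11.2% and 9.65% of all genes), including ANAPC1 (-0.30 ± 0.087) and CDC27 (-0.30 ± 0.082). Among 18 DREAM and E2F regulators 10 were higher and 4 lower in NCI-N87 with T-DXd (55.6% and 22.2%, against 29.1% and 29.5% of all genes). CDKN1A (p21), an inhibitor of cyclin-dependent kinases, had 88.8, 91.98 and 90.9 CPM with T-DXd, against 35.5, 32.5 and 34.4 CPM with vehicle (log2 fold change 1.41 ± 0.050 (SE), adjusted p = 6.86e-13), while in SNU-484 it had 43.6, 44.9 and 53.6 CPM with T-DXd, against 47.6, 47.4 and 50.02 CPM with vehicle (-0.03 ± 0.081 (SE), adjusted p = 0.813). The groups were far apart in NCI-N87 and overlapped in SNU-484, and the difference between the lines was -1.46 ± 0.095 (SE), adjusted p = 1.69e-07. The MuvB subunit LIN54 was higher in NCI-N87 (0.72 ± 0.047) and E2F5, a repressor E2F, lower (-0.92 ± 0.069). In SNU-484 4 of the 18 were higher and 1 lower (22.2% and 5.56%, against 11.2% and 9.65% of all genes). Among them were the pocket protein RBL2 at 0.42 ± 0.086, E2F2 at 0.30 ± 0.070 and E2F5 at -0.25 ± 0.077.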

How the data were processed

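RNA was measured in 15 libraries (5 groups of 3). The submitters' processing notes name Trimmomatic 0.38 (trimming), HISAT2 2.1.0 (alignment, GRCh38) and StringTie 2.1.3b (counting). The annotation release is not given in the sources used here. The deposited counts are whole reads per gene and library, listed only for genes with at least 1 read in every library of the table. The deposited TPM values, made by the authors, were used only to compare levels between genes. The authors' normalized columns (18 for NCI-N87 and 12 for SNU-484), their comparison columns (fold changes, p-values) and 2 small sheets of copied values were not used.

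For the tests, edgeR's quasi-likelihood method (version 4.0.16, R 4.3.3) was run on genes that filterByExpr kept (count at least 10, total at least 15), scaled by TMM. P-values were adjusted by Benjamini-Hochberg over all genes tested. The 9 NCI-N87 libraries were fitted together (17394 genes, 6 residual degrees of freedom), the 6 SNU-484 libraries alone (16876 genes, 4), and the difference between lines over 12 libraries (14704 genes, 8). SE is the log2 fold change over the square root of F, and 95% intervals use residual plus prior degrees of freedom. CPM uses TMM within a line, and jointly for levels between lines. No source says that replicates came from separate cultures, so p-values measure the spread between these libraries. Scripts were tested on simulated data. DESeq2 1.42.0, other scalings, filters, thresholds, a replicate block and leaving out libraries were alternatives. The members and all lists were chosen with earlier results of these data known. Genes named are a list of 13 regulators, those with the largest called change in each functional group, those called in opposite directions, those not called where fewer than 10 were not, and up to 4 genes of each other list. Others were named after their values were seen. Where a symbol had several RefSeq promoter entries, the first by coordinate was taken. In GENCODE v44 the exons of 17 members overlap those of another listed gene, and their counts may share reads.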

Additional observations from a re-analysis of the deposited data

Results flagged for a closer look

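The T-DXd effect differed between the lines, by the test of the difference itself, for 49 members with a lower and 1 member with a higher effect in SNU-484 than in NCI-N87. Among these, 4 genes were called in opposite directions in the lines. The difference (SNU-484 minus NCI-N87, log2) was -0.42 ± 0.055 for AURKA, -0.40 ± 0.058 for CDCA8, -0.63 ± 0.10 for ECT2 and -0.63 ± 0.069 for NCAPG (± SE). The calls of CDCA8, ECT2 and NCAPG within SNU-484 were lost in 5, 4 and 3 of 6 fits without 1 library, while that of AURKA was kept in all 6.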

How the results depend on the processing

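No member called in the main comparison reversed under any alternative run. At an adjusted p under 0.01, trastuzumab lowered 8 members and 466 of all 17394 genes. T-DXd raised 1 member and lowered 2 in SNU-484 at this threshold. The share of all genes called there at an adjusted p under 0.01 is not given here. At an adjusted p under 0.01 a higher effect in SNU-484 than in NCI-N87 was called for 0 members. It was called for 1 at an adjusted or unadjusted p under 0.05, and for 1 with DESeq2. When a 2-fold change was required with an unadjusted p under 0.05, 0 members passed in any comparison or direction, since no change reached 2-fold. Scaling by library totals left 7 members and 529 of all 17394 genes lower with trastuzumab. DESeq2 gave 50 higher and 3 lower with T-DXd in NCI-N87, 0 and 20 with trastuzumab and 56 and 2 for T-DXd against trastuzumab. It gave 4 and 12 in SNU-484 and 1 and 49 for the difference. Over all 18473 genes DESeq2 gave 5008 and 4909, 689 and 1500, and 4988 and 4705 in these NCI-N87 comparisons. In SNU-484 it gave 2127 and 2082 of 18346 genes. For the difference its count over all genes is not given here. Without 1 library each, the counts of higher and lower members were 48 to 50 and 3 to 4 for T-DXd in NCI-N87. They were 0 and 9 to 14 for trastuzumab, and 53 to 56 and 2 for T-DXd against trastuzumab. In SNU-484 they were 1 to 6 and 2 to 14, and for the difference 1 and 46 to 49. Over all genes these fits called 27.1% to 27.6% higher and 26.9% to 27.7% lower for T-DXd in NCI-N87. With trastuzumab the shares of all genes were 2.12% to 2.40% and 3.55% to 5.32%. In SNU-484 they were 4.89% to 16.4% and 3.73% to 15.7%. For T-DXd against trastuzumab they were 25.7% to 26.5% and 26.3% to 27.3%. For the difference they were 16.6% to 23.6% higher and 19.7% to 23.4% lower. Without 2 SNU-484 libraries (T-DXd replicate 3 and vehicle replicate 1), chosen after the data were seen, 6 members were higher and 14 lower in SNU-484. The share of all genes called in that fit is not given here. Without T-DXd replicate 3 alone, 16.4% of all genes were higher and 15.7% lower, against 11.2% and 9.65% in the main fit.

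Same-numbered libraries shared only a number by the labels. Deviations from group means correlated at -0.06 to 0.20 in 12 same-numbered pairs and at -0.29 to 0.16 in 24 others, and for T-DXd against trastuzumab every library correlated best with its own number (0.10, 0.07 and 0.05), a hint from the data and not the design. With the replicate block 16 members were lower and 5 higher in SNU-484, and 50 were lower and 1 higher for the difference. The share of all genes called in these fits is not given here. In NCI-N87 higher and lower members numbered 50 and 3 for T-DXd and 0 and 14 for trastuzumab. For T-DXd against trastuzumab they numbered 56 and 2. Over all 17394 genes the counts in these NCI-N87 comparisons were 5065 and 5080, 590 and 982, and 4893 and 5073.

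The median SE of the log2 fold change among members was 0.03 for T-DXd in NCI-N87 and 0.06 in SNU-484, and no member had under 779 reads in a library.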

Other observations

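BUB3 gave different answers in the 2 kinds of deposited value. Its counts did not pass the test with T-DXd in NCI-N87 (log2 fold change -0.02), while its TPM averaged 62.9 with T-DXd and 52.5 with vehicle, a log2 ratio of 0.26. The gap of 0.28 between both ratios was the largest of the 60 members, for which it had a median of 0.06. This gene was chosen after its values were seen.

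Mitochondrially encoded genes moved in SNU-484 beside these results. Their summed level, over 13 genes, was between 187453 and 197651 TPM with T-DXd and between 157284 and 165760 TPM with vehicle. Of the 13, 9 were called higher and 0 lower (69.2% and 0%, against 11.2% and 9.65% of all genes). In NCI-N87 they summed to between 187360 and 193133 TPM with T-DXd and between 191025 and 194680 TPM with vehicle. By edgeR 0 were higher and 8 lower there (1 and 8 at an unadjusted p under 0.05, without a share of all genes). The adjusted counts were 0% and 61.5%, against 29.1% and 29.5% of all genes. The part of these changes in the results for the mitotic genes was not tested.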
